A study of Homo sapiens with 8 samples.

Results

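Imprinted genes are transcribed mainly from a single parental copy, which is chosen by DNA methylation marks set in the egg or the sperm. Their products tend to act on growth, and several are abundant in embryonic muscle and in muscle progenitors. G9a, encoded by EHMT2, methylates histone H3 at lysine 9, and together with its partner GLP it has been linked in embryonic and placental cells to keeping the silent copy off and to maintaining DNA methylation at imprinted regions. The 10 genes described here are MEG3, DLK1, PEG3, PEG10, CDKN1C, NDN, MEST, SGCE, PLAGL1 and GRB10, imprinted genes that lie outside the IGF2 locus. They were chosen by name, as 10 of the 60234 genes of the deposited table, and each symbol stood on 1 Ensembl identifier. The values sum both parental copies, so nothing here says which copy was transcribed.

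The cells were Rh41, an established alveolar rhabdomyosarcoma line, a muscle-like tumour, that carries a PAX3-FOXO1 fusion gene. The 8 libraries form 4 controls and 4 labelled siG9a, with G9a knocked down; the series title writes shG9a instead, and the sources used here give neither the sequence of the agent, the control agent nor the time after treatment. Replicates are described as biological, and no label says whether they came from separate cultures, so p-values measure the spread between these libraries. Values are CPM, a gene's reads scaled to all reads that its library assigned to genes, from libraries of transcript 3' ends, in which a value does not grow with transcript length.

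Libraries held 1458825 to 1938665 reads, so that 1 read was worth 0.516 to 0.685 CPM and 3 reads, the floor used here, 1.55 to 2.06 CPM. EHMT2 was at 57.6, 68.1, 87.3 and 88.3 CPM in control replicates 1 to 4 and at 19.6, 35.1, 33.1 and 58.5 CPM in siG9a, which is 34.04%, 51.6%, 37.9% and 66.3% of the control with the same number. Both replicate 3 libraries stood apart. Summed over the 13 of 14 muscle markers found in the table, the level was 404 CPM in control replicate 3 and 2505 to 2977 CPM in the other controls, and 264 CPM in siG9a replicate 3 and 1077 to 1684 CPM in the other siG9a libraries. The sum over 8 neural markers went the other way, at 9775 and 9016 CPM in the replicate 3 libraries and 441 to 3118 CPM in the other 6. Of the muscle markers, MYF5 was at 0 in every library; the 8 fibroblast and stromal markers summed to 51.95 to 406 CPM, the 7 epithelial markers to 10.3 to 79.9 CPM, the 5 immune markers to 1.83 to 9.71 CPM and the endothelial markers to at most 0.69 CPM. Results are therefore given with and without replicate 3.

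Transcripts of 4 of the 10 genes, PEG3, PEG10, PLAGL1 and GRB10, were lower in siG9a in all 4 same-numbered pairs, as were 15.3% of all tested genes, to between 14.6% and 88.6% of the paired control. MEG3 was lower in 3 of 4 pairs. MEST, NDN, CDKN1C and SGCE were higher in some pairs and lower in others, and DLK1 was near 0 throughout. The muscle marker sum was also lower in siG9a in all 4 pairs, at 1555, 1077, 264 and 1684 CPM in siG9a replicates 1 to 4 against 2977, 2505, 404 and 2964 CPM in control. The share of reads from mitochondrial genes was higher in all 4 pairs, at 13.7%, 11.4%, 6.53% and 5.21% against 9.18%, 5.58%, 4.68% and 4.59%. The part of either in the lower levels was not tested. The test was limma on log2(CPM + 1) over the 15092 genes averaging 1 CPM or more, with Benjamini-Hochberg adjustment and a threshold of 0.05. Of the 10 genes, 9 had that mean and DLK1 did not. Without a term for the replicate number, limma called 0 of these 9 (2 had an unadjusted p under 0.05), beside a background of 0% of all genes, of which 12.5% had an unadjusted p under 0.05. With the replicate number as a block, here called the paired fit, limma called PEG3, PEG10, PLAGL1 and GRB10, all lower, which is 44.4% of the 9, beside 11.4% of all genes called and 6.52% called lower. No label says what a replicate number shares. Numbers 2 and 4 correlated less with their own number (0.104 and 0.130) than with another (0.144). Their pairing rests on the titles, and the calls of the paired fit depend on it. On reads recovered from the CPM, edgeR with the block also called 4 of the 9 (11.3% of all genes) and DESeq2 with the block 3 (6.2% of all genes), while DESeq2 without it called 0 (1.93% of all genes). Without replicate 3 the paired fit called PEG3, PEG10 and PLAGL1, beside 7.14% of all genes, and the siG9a values of 5 of the 9, these 3 with GRB10 and MEG3, lay below all controls, as did those of 11.5% of all tested genes. The log2 change was below 0 for 8 of the 9, with a median of −0.38, where it was below 0 for 48.9% of all tested genes, with a median of 0.01. NDN was among the 8 at −0.07. Without replicate 3 of both groups it was below 0 for 7 of the 9 and for 7356 of the 15092 genes. Of these 7, MEST was at −0.009 and SGCE at −0.0002. Leaving out 1 library gave 6 to 9 of the 9. The 10 genes summed to 2967, 2426, 938 and 3237 CPM in control replicates 1 to 4 and 1785, 1704, 794 and 1983 CPM in siG9a, and MEG3 and PEG10 made up 80.3% to 90.3% of these sums. In bulk RNA a smaller share of cells with a transcript and less transcript per cell cannot be told apart, which holds for every level below.

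**Figure D1:**
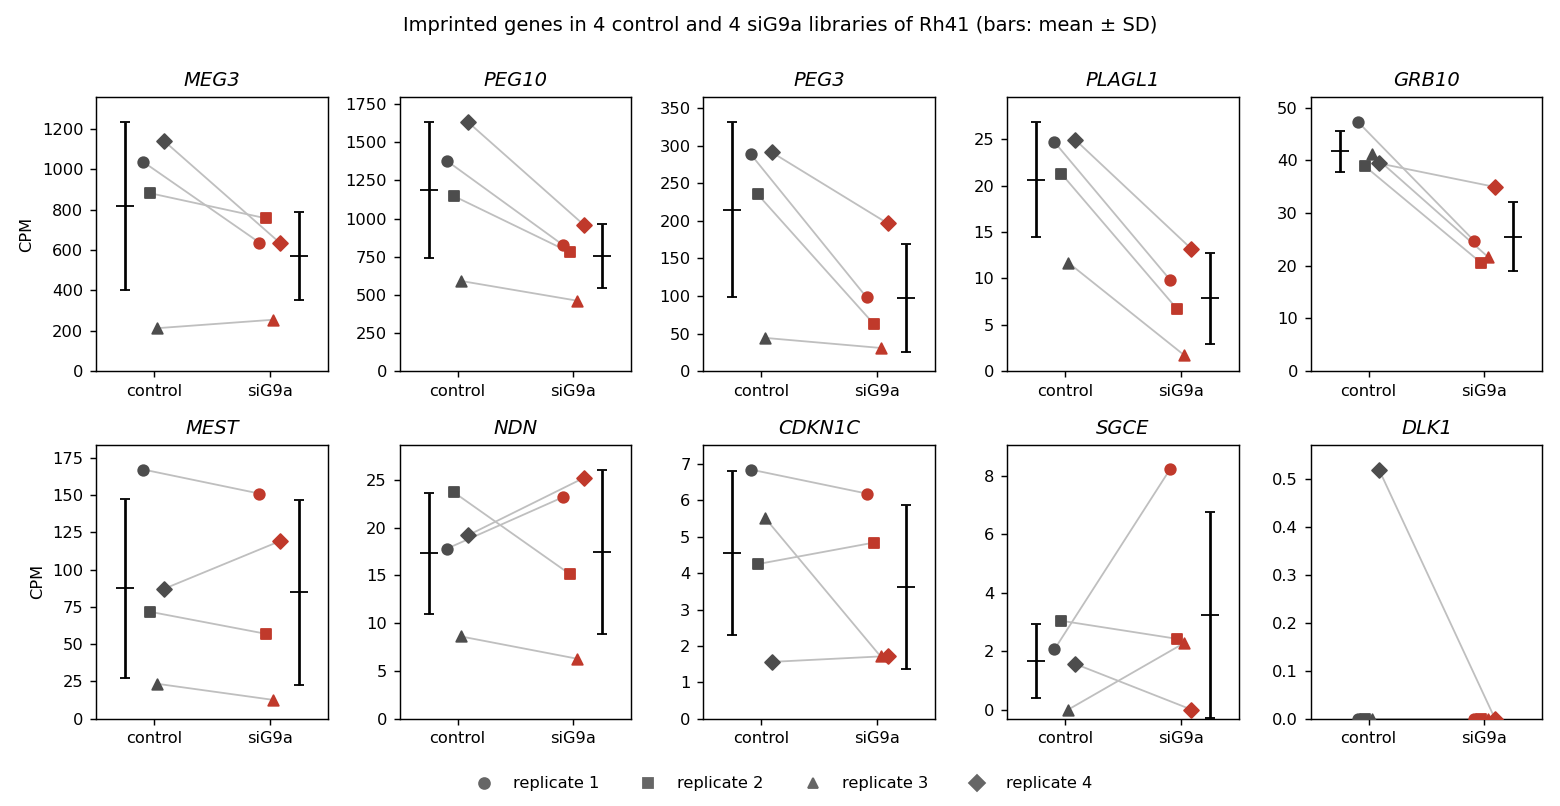
CPM of the 10 genes in each library (y axis, a separate scale for each gene), control in grey and siG9a in red, with a marker shape for each replicate number, lines joining the same number, and bars for the mean ± SD of 4 libraries (none drawn for DLK1). PEG10, PEG3, PLAGL1 and GRB10 fall along every line, and the replicate 3 triangle is the lowest point of both groups for MEG3, PEG10, PEG3, PLAGL1, MEST and NDN.

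PEG3 and PLAGL1 are zinc finger proteins that bind DNA and are transcribed from the paternal copy; PEG3 marks progenitor cells of several tissues, muscle among them, and PLAGL1 (also named ZAC1) can halt the cell cycle and acts on other imprinted genes. PEG3 (ENSG00000198300, chromosome 19) was at 289, 235, 44.3 and 291 CPM in control replicates 1 to 4 and at 98.0, 62.95, 30.8 and 197 CPM in siG9a. The groups overlapped only through control replicate 3, which lay below siG9a replicates 1, 2 and 4. Control averaged 214.8 ± 117 CPM and siG9a 97.1 ± 71.8 CPM (SD, n = 4 each), and the siG9a level was 33.96%, 26.8%, 69.6% and 67.5% of the paired control. Its fitted log2 change was −1.13 ± 0.62 (SE) with a limma adjusted p of 0.497, and ± 0.19 (SE) with an adjusted p of 0.000368 in the paired fit. Without replicate 3 the 3 siG9a values lay below all 3 controls, the change was −1.33 ± 0.31 (SE) and the adjusted p was 0.0293 without the block; PEG3 was the only one of the 9 called in that fit, which called 2.74% of all genes.

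PLAGL1 (ENSG00000118495, chromosome 6) had the lowest log2 change of the 9 genes in the fits of all 8 libraries, except with a pseudocount of 5, where it was at −1.05 and PEG3 at −1.09. Without replicate 3 of both groups PEG3 was lowest. It was at 24.7, 21.3, 11.7 and 24.9 CPM in control and at 9.80, 6.66, 1.71 and 13.2 CPM in siG9a, which rests on 19 to 48 reads and 3 to 23 reads per library. Only control replicate 3 reached into the siG9a range, below siG9a replicate 4. The means were 20.6 ± 6.2 and 7.84 ± 4.88 CPM (SD, n = 4 each), and the siG9a level was 39.7%, 31.3%, 14.6% and 52.9% of the paired control. For PLAGL1 the fitted log2 change was −1.47 ± 0.49 (SE) with a limma adjusted p of 0.254, and ± 0.31 (SE) with an adjusted p of 0.00230 in the paired fit; without replicate 3 it was −1.22 with adjusted p-values of 0.0678 and 0.0230. PLAGL1 shares part of its locus with HYMAI, an imprinted non-coding transcript on the same strand that was not matched in the table.

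GRB10 encodes an adaptor protein that restrains signalling by insulin and IGF receptors, and its parental origin of transcription depends on the tissue. GRB10 (ENSG00000106070, chromosome 7) was at 47.3, 38.9, 41.2 and 39.5 CPM in control and at 24.8, 20.6, 21.7 and 34.98 CPM in siG9a. It was the only one of the 9 whose 4 siG9a values all lay below the 4 controls, which was the case for 3.45% of all tested genes, and its replicate 3 libraries did not stand apart. The means were 41.7 ± 3.85 and 25.5 ± 6.56 CPM (SD, n = 4 each), with siG9a at 52.3%, 52.9%, 52.7% and 88.6% of the paired control. An exact two-sided permutation test of the 8 log values gave p = 0.0286, the smallest that 4 against 4 allows, and 0.0571 for PLAGL1, 0.171 for PEG10 and 0.229 for PEG3. That test does not use the pairing; the exact two-sided sign-flip permutation test over the 4 pairs gave p = 0.125 for each of the 4 genes, the smallest that 4 pairs allow, so it could not reach 0.05. Its fitted log2 change was −0.71 ± 0.24 (SE) with a limma adjusted p of 0.268, and ± 0.21 (SE) with 0.0284 in the paired fit. That call was lost without pair 1, 2 or 3 (adjusted p of 0.116, 0.156 and 0.127) and by DESeq2 with the block (0.104).

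Imprints are carried by DNA methylation at CpG dinucleotides, and the zinc finger protein ZFP57 binds the letters TGCCGC with the CpG methylated and protects imprints. ZFP57 itself had 0 reads in all 8 libraries, and a floor of 3 reads allows up to 1.55 to 2.06 CPM. RefSeq windows of 300 bases (250 before to 50 after a transcript start, GRCh38.p14) were at hand for 5 of the 10 genes, MEG3, NDN, MEST, PLAGL1 and GRB10, and not for DLK1, PEG3, PEG10, CDKN1C and SGCE. For a gene with several starts the window with the most CpG was taken. Whether a window lies in the imprinted region of its gene was not looked up, so a printed window need not carry an imprint. Below are those of PLAGL1 and GRB10, which were lower in all 4 pairs, and of MEST and NDN, which were not, so that the letters stand beside the levels. Each is written 5' to 3' on the strand of its gene, and capitals mark TGCCGC or its reverse complement GCGGCA. In the order shown they lie at chr6:144008210-144008509 (minus strand), chr7:50792825-50793124 (minus strand), chr7:130491835-130492134 (plus strand) and chr15:23687256-23687555 (minus strand), and each spans the sequence upstream of a first exon and its first 50 bases.
PLAGL1: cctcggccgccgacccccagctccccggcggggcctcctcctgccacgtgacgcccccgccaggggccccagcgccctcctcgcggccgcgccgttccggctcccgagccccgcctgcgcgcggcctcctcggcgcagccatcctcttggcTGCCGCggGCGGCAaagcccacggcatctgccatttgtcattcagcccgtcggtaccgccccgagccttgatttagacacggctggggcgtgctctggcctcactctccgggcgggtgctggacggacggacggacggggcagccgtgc
GRB10: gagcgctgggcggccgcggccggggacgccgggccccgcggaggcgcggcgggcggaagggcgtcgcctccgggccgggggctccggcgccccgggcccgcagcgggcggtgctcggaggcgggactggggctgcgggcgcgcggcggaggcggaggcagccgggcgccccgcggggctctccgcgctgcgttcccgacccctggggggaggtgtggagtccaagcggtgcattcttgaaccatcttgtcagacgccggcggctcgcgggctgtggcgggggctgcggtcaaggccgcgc
MEST: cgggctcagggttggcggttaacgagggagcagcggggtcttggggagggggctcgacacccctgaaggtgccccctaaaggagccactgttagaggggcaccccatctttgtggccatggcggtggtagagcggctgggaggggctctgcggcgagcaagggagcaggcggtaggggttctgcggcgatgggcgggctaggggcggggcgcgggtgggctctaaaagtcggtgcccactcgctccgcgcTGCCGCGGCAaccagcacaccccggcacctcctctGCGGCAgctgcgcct
NDN: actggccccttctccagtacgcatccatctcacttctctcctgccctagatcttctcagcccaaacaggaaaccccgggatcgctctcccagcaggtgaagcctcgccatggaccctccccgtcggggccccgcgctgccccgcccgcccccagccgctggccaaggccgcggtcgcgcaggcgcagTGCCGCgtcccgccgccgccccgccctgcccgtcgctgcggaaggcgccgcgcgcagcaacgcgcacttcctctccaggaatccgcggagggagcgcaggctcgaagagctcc
The windows held 39, 49, 25 and 35 CpG in that order. They were picked for their CpG, so these numbers are not compared with those of other genes: the windows at other starts held 2 to 31 CpG for PLAGL1, 3 to 44 for GRB10 and 13 to 22 for MEST, and NDN had 1 window. They held 2, 0, 3 and 1 matches to TGCCGC on either strand, a pair of which share bases in MEST, and the GRB10 window with 44 CpG held 1. Over all starts of the 5 genes 10 of 19 windows held at least 1 match, where 16.7% of all 35116 RefSeq windows do. Some of the 19 overlap, such as the 3 of MEG3, so that the same letters are counted more than once. TGCCGC also holds a CpG, and most of the 19 held more than 14 CpG, the median of all RefSeq windows. The shares are therefore not read as an excess. The MEG3 window, not shown, held 19 CpG and 1 match. The start used for PLAGL1 lies 3 bases from the annotated start of HYMAI, and the start used for MEST lies 1052 bases from that of MESTIT1 on the other strand. A match is a description of the letters, and no methylation was measured here.

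PEG10 and SGCE are neighbours on chromosome 7 that are transcribed in opposite directions from a shared imprinted promoter region, both from the paternal copy. PEG10 descends from a retrotransposon and encodes a protein like a viral capsid; SGCE encodes epsilon-sarcoglycan, a membrane protein of the dystrophin-associated complex. PEG10 (ENSG00000242265) was at 1377, 1147, 591 and 1632 CPM in control and at 826, 778, 462 and 958 CPM in siG9a. Among replicates 1, 2 and 4 every siG9a value lay below every control value, and replicate 3 was the lowest library of each group. The means were 1187 ± 444 and 756 ± 210.5 CPM (SD, n = 4 each), and siG9a was at 60.0%, 67.9%, 78.2% and 58.7% of the paired control. For PEG10 the log2 change was −0.60 ± 0.32 (SE) with a limma adjusted p of 0.479, and ± 0.14 (SE) with 0.00470 in the paired fit; without replicate 3 it was −0.69 with adjusted p-values of 0.111 and 0.0211.

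SGCE (ENSG00000127990) was close to the floor, with 0 to 5 reads per control library and 16, 4, 4 and 0 reads in siG9a replicates 1 to 4. Its CPM was 2.06, 3.04, 0 and 1.56 in control and 8.25, 2.42, 2.28 and 0 in siG9a, so that a single library, siG9a replicate 1, stood above the others. Its log2 change was 0.43 with a 95% interval of −1.0 to 1.86 (limma adjusted p = 0.853), and −0.000194 without replicate 3, so neither a rise nor a fall was detectable at this depth. The shared promoter region was thus accompanied by levels of 591 to 1632 CPM on the PEG10 side and of at most 3.04 CPM on the SGCE side in control. In the annotation PEG10 and SGCE overlap on opposite strands, as do SGCE and CASD1. PPP1R9A, also on chromosome 7 and imprinted in some tissues, was lower in 4 of 4 pairs, as were 15.3% of all tested genes. Its log2 change of −0.39 passed neither limma fit (adjusted p of 0.654 and 0.159). CASD1 was at 20.7 and 21.7 CPM on average in control and siG9a.

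**Figure D2:**
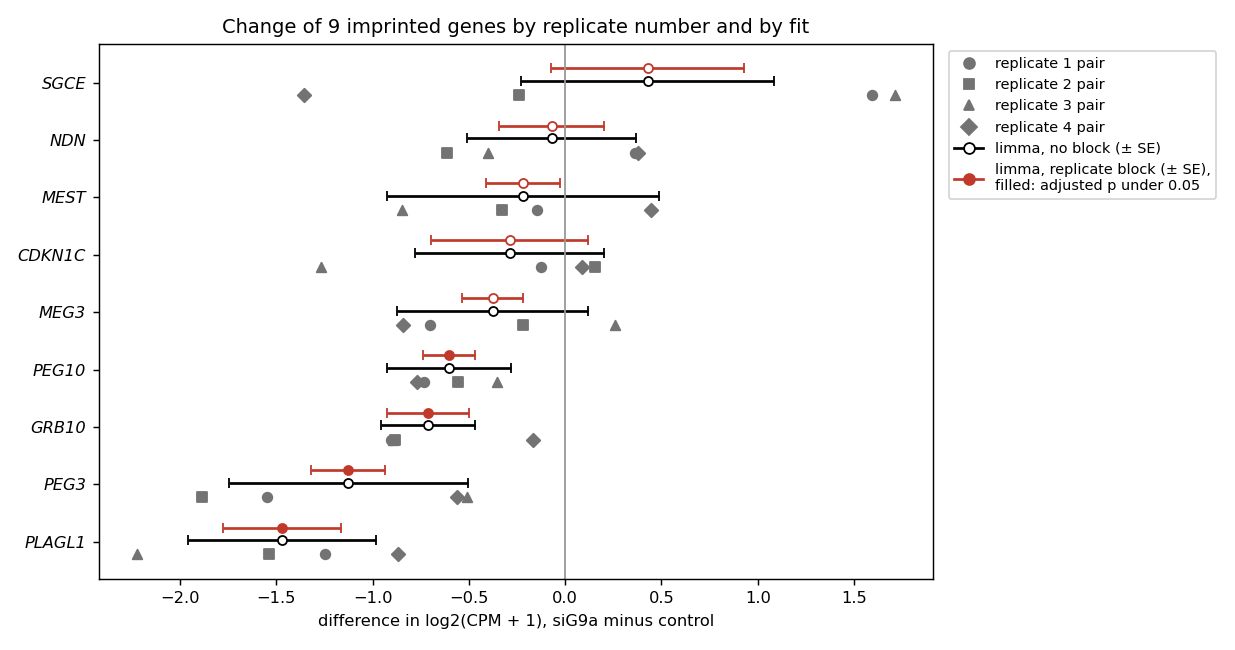
Difference in log2(CPM + 1), siG9a minus control (x axis), for the 9 tested genes: grey marks are the 4 same-numbered pairs, and circles with bars are the limma estimates ± SE without the block (black) and with it (red, filled where the adjusted p is under 0.05). PLAGL1, PEG3, GRB10 and PEG10 have all 4 marks below 0, while the marks of MEST, NDN, CDKN1C and SGCE lie on both sides.

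MEG3 and DLK1 belong to a single imprinted cluster on chromosome 14, in which the maternal copy makes the long non-coding RNA MEG3 and the paternal copy makes DLK1, a membrane protein related to Notch ligands that is high in embryonic and regenerating muscle. MEG3 (ENSG00000214548) was at 1036, 881, 213 and 1139 CPM in control and at 637, 757, 255 and 634 CPM in siG9a. In replicates 1, 2 and 4 all siG9a values lay below all controls (61.5%, 85.9% and 55.6% of the paired control), whereas siG9a replicate 3 was at 119.7% of control replicate 3. For MEG3 the log2 change was −0.38 ± 0.49 (SE), with limma adjusted p-values of 0.816 and, in the paired fit, 0.129. Without replicate 3 the means were 1019 ± 129.9 and 676 ± 69.98 CPM (SD, n = 3 each), and the log2 change of −0.59 had adjusted p-values of 0.153 and, in the paired fit, 0.0556. MEG3 was therefore not called in any fit, and the interval of its change ran from −1.45 to 0.70 without the block and from −0.70 to −0.05 with it.

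DLK1 (ENSG00000185559) had 1 read in control replicate 4 and 0 reads in the other 7 libraries. A count of 0 allows up to 3 reads, or 1.55 to 2.06 CPM, in those 7 libraries, and the 95% Wilson interval of the library with 1 read reaches 2.94 CPM, for counting error only, beside 213 to 1139 CPM of MEG3. RTL1, a paternally transcribed gene of the same cluster, was at 0 in all 8 libraries. MEG8, MEG9 and DIO3 averaged 4.15, 7.497 and 1.69 CPM in control and 3.04, 8.60 and 2.18 CPM in siG9a, with paired adjusted p-values of 0.875 or more. Of 8 listed genes of this cluster 5 were tested and 0 called in either fit.

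MEST, NDN and CDKN1C were called neither without the block nor with it. MEST encodes a hydrolase-fold protein and is transcribed from the paternal copy in mesoderm. MEST (ENSG00000106484, chromosome 7) was at 167, 71.7, 23.4 and 87.2 CPM in control and at 151, 56.9, 12.6 and 119 CPM in siG9a. The values ran over a wide range within each group, from replicate 3 to replicate 1, and the group means of 87.4 ± 59.8 and 84.97 ± 62.15 CPM (SD, n = 4 each) were close. The log2 change was −0.22, with a 95% interval of −1.75 to 1.31 without the block and of −0.61 to 0.18 with it (limma adjusted p of 0.940 and 0.518). MEST overlaps COPG2 on the opposite strand, and whether counting used strand is not given in the sources used here. COPG2 averaged 100.5 and 97.5 CPM in control and siG9a.

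NDN encodes necdin, a MAGE-family protein that restrains proliferation and is present in differentiating muscle and nerve cells, from the paternal copy. NDN (ENSG00000182636, chromosome 15) was at 17.8, 23.7, 8.61 and 19.2 CPM in control and at 23.2, 15.1, 6.28 and 25.2 CPM in siG9a. It was higher in replicates 1 and 4 and lower in replicates 2 and 3, with means of 17.3 ± 6.33 and 17.5 ± 8.64 CPM (SD, n = 4 each). The log2 change was −0.07 with a 95% interval of −0.63 to 0.49 in the paired fit (limma adjusted p = 0.909), and its sign turned to 0.04 without replicate 3.

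CDKN1C encodes the cyclin-dependent kinase inhibitor p57, which is transcribed from the maternal copy and promotes cell cycle exit of myoblasts. CDKN1C (ENSG00000129757, chromosome 11) was at 6.85, 4.25, 5.53 and 1.56 CPM in control and at 6.19, 4.84, 1.71 and 1.72 CPM in siG9a, which is 3 to 12 reads per library. The groups overlapped over most of their range, and the log2 change of −0.29 had a 95% interval of −1.13 to 0.55 in the paired fit (limma adjusted p = 0.719). 

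The replicate 3 libraries were the lowest of both groups for 6 of the 9 tested genes, MEG3, PEG3, PEG10, NDN, MEST and PLAGL1, as they were for 19.8% of all tested genes. Control replicate 3 was at 20.9% of the mean of the other controls for MEG3, 16.3% for PEG3, 42.7% for PEG10, 21.5% for MEST, 42.5% for NDN and 49.4% for PLAGL1. In siG9a the matching shares were 37.7%, 25.9%, 54.1%, 11.5%, 29.6% and 17.3%.  GRB10, at 98.4% and 81.1%, did not share it. The muscle marker sum was low and the neural marker sum high in the same libraries, and their part in these levels was not tested. MEG3 levels over the 8 libraries were most like those of NEB, which encodes the sarcomere protein nebulin, among 8898 genes averaging 10 CPM or more (Pearson r of 0.99 and Spearman rho of 0.90 over 8 libraries, r of 0.91 over the 6 without replicate 3). The next was CHD7 (r of 0.99 and rho of 1, and r of 0.98 without replicate 3). The closest for PEG3 were SRC and TRAM2 (r of 0.99 for both), for PEG10 SEPT11 and SRGAP1 (0.99 for both), for MEST MSC and RP11-558F24.4 (0.99 for both) and for NDN DDR1 and BOD1 (0.98 for both). For PLAGL1 they were AP001007.1 and SEMA3D (0.99 and 0.98) and for GRB10 TSN and TOP2B (0.98 and 0.97). These likenesses are descriptions, since the points share libraries and the replicate 3 libraries carry much of the spread. Group means were not removed, here or among the members below. A shared difference between control and siG9a therefore also raises r. Among the members PEG3 and PEG10 had the highest r over all 8 libraries (0.96, and 0.90 without replicate 3), and PEG3 and GRB10 the highest without replicate 3 (0.98, and 0.66 over all 8), while MEG3 and NDN went from r of 0.81 to −0.43 once replicate 3 was left out.

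**Figure D3:**
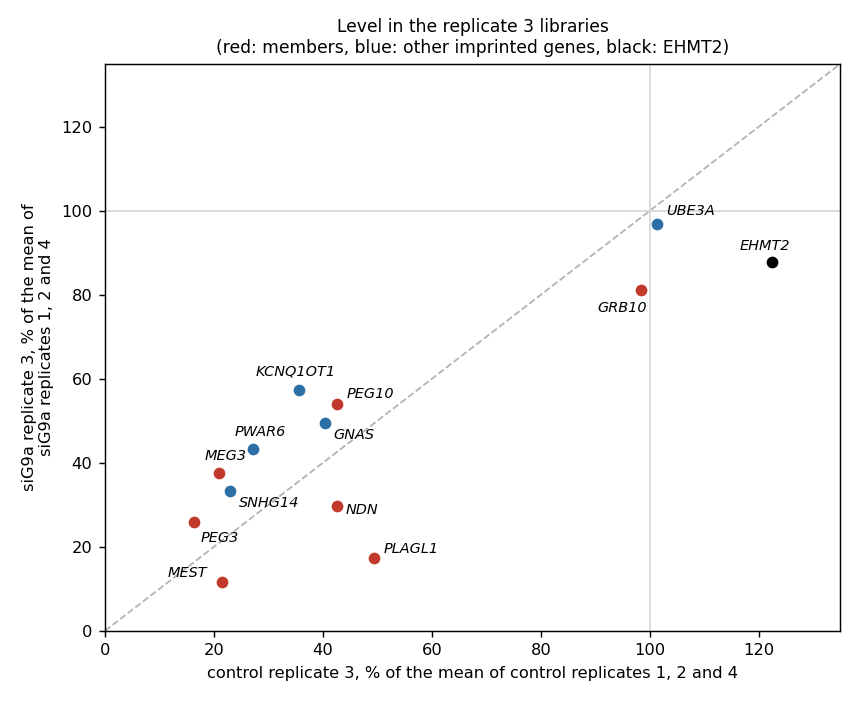
Level in the replicate 3 library as a percentage of the mean of replicates 1, 2 and 4 of the same group, in control (x axis) and siG9a (y axis), for the 7 members with a mean of at least 10 CPM (red), 5 other imprinted genes (blue) and EHMT2 (black); the dashed line marks equal percentages. MEG3, PEG3, PEG10, MEST, NDN and PLAGL1 lie under 55% on both axes, GRB10 and UBE3A above 80%.

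A list of 66 other imprinted genes was compared in the same way. Of these, 60 were found in the deposited values, 8 of these at 0 in every library, and 35 had a mean of at least 1 CPM. Limma without the block called 0 of the 35 (1 had an unadjusted p under 0.05), and the paired fit called KCNQ1OT1, GNAS, SNHG14 and PWAR6, all lower, which at 11.4% equals the 11.4% of all genes called. The median log2 change of the 35 was −0.02. The 4 called genes include 3 long non-coding RNAs of imprinted clusters that hold a member. Of these, SNHG14 and PWAR6 share the NDN cluster, and whether they are separate transcripts was not looked up.

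KCNQ1OT1 is the paternally transcribed non-coding RNA that silences the cluster of CDKN1C in cis. KCNQ1OT1 was at 621, 574, 257 and 968 CPM in control and at 383, 389, 244 and 508 CPM in siG9a. The siG9a level was 61.6%, 67.7%, 95.1% and 52.4% of the paired control, with the smallest difference in replicate 3. Its log2 change was −0.57 ± 0.15 (SE) with a limma adjusted p of 0.0129 in the paired fit and 0.555 without the block. CDKN1C itself stayed between 1.56 and 6.85 CPM, and NAP1L4, PHLDA2 and OSBPL5 of the same cluster had paired adjusted p-values of 0.654, 0.251 and 0.372.

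SNHG14 and PWAR6 come from the paternally transcribed non-coding region of chromosome 15 that also holds NDN and ends antisense to UBE3A. PWAR6 was at 56.2, 71.1, 17.8 and 69.6 CPM in control and at 8.77, 22.4, 8.56 and 28.1 CPM in siG9a, or 15.6%, 31.5%, 48.0% and 40.4% of the paired control. Its log2 change was −1.61, with limma adjusted p-values of 0.216 without the block, 0.000112 with it and 0.00964 without replicate 3 and without the block. SNHG14 was at 114, 176, 35.7 and 175.5 CPM in control and at 47.5, 91.4, 24.6 and 82.01 CPM in siG9a, a log2 change of −0.95 with adjusted p-values of 0.481, 0.000606 and 0.0390 in the same 3 fits. Both transcripts were lower in 4 of 4 pairs, as were 15.3% of all tested genes, unlike NDN in the same cluster. The difference between NDN and these genes was not tested. UBE3A, a ubiquitin ligase that is imprinted in neurons only, was at 169, 183, 187 and 201 CPM in control and at 149, 136, 142 and 156 CPM in siG9a. The siG9a values of UBE3A all lay below the controls, as did those of 3.45% of all tested genes. Its replicate 3 libraries were at 101% and 96.8% of the mean of the others. The log2 change of −0.34 had limma adjusted p-values of 0.447 and, paired, 0.129. SNHG14 and UBE3A overlap on opposite strands in the genome, so that reads near their overlap are uncertain where strand was not used.

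GNAS encodes the stimulatory G protein alpha subunit, which most tissues make from both copies, alongside imprinted transcripts that share its 3' end. GNAS was at 879, 588, 317 and 892 CPM in control and at 557, 372, 245 and 554 CPM in siG9a, or 63.3%, 63.3%, 77.2% and 62.1% of the paired control. The log2 change was −0.59 with limma adjusted p-values of 0.530 and, in the paired fit, 0.00475. Reads from transcript ends do not part the imprinted GNAS transcripts from the others.

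**Figure D4:**
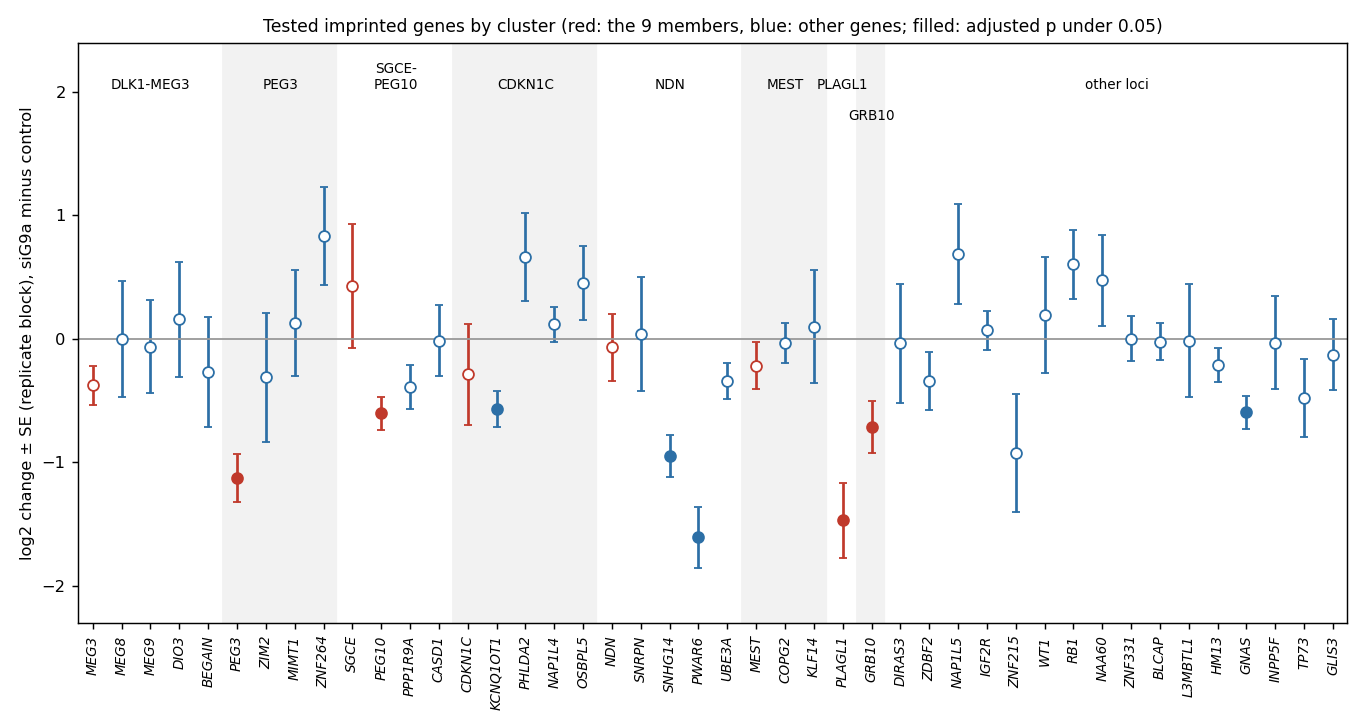
Log2 change, siG9a minus control, with the SE of the paired limma fit (y axis), for the 44 tested imprinted genes grouped by the cluster of the member they belong to (x axis), members in red and other genes in blue, filled where the paired adjusted p is under 0.05. The 8 filled points all lie below 0 and are spread over 6 named clusters and GNAS, and most other genes of the same clusters sit near 0 or with wide bars.

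Of 28 regulators of imprints, such as DNA methyltransferases and the zinc finger proteins and cofactors that guard methylated imprints, 21 were tested. The paired fit called EHMT2, DNMT3A and DNMT3B, all lower (14.3% of the 21, beside 11.4% of all genes). That share counts EHMT2, the target of the knockdown, whose lower level follows from the design, so it is not read as an excess. The fit without the block called 0, with 6 at an unadjusted p under 0.05. DNMT3A and DNMT3B, the enzymes that lay down new DNA methylation, were at 16.8% to 39.3% and 19.9% to 42.6% of the paired control. DNMT1, which copies methylation after replication, averaged 182 and 208 CPM with a paired adjusted p of 0.351, UHRF1, its partner, 24.5 and 16.7 CPM with 0.306, and TRIM28, a cofactor of such zinc finger proteins, 75.7 and 74.3 CPM with 0.923. ZNF445, SETDB1 and TET3, named here after their values were seen, were the 3 tested regulators whose siG9a values all lay above the controls, a pattern seen in 3.88% of all tested genes. ZNF445, a zinc finger protein that protects imprints, was at 28.1 to 36.9 CPM in control and 37.1 to 61.4 CPM in siG9a, with limma adjusted p-values of 0.350 and, paired, 0.0559. SETDB1, an H3K9 methyltransferase recruited by TRIM28, was at 16.4 to 19.7 and 23.98 to 29.9 CPM (0.361 and 0.120), and TET3, which oxidises methylated cytosine, at 3.63 to 4.80 and 5.71 to 9.80 CPM (0.331 and 0.123).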

How the data were processed

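Values are CPM as the authors deposited them, 1 column per library. Per the submitters' processing notes, FastQC 0.11.8, Trim Galore, STAR 2.5.0a, HTSeq 0.8.0 and edgeR 3.28 were used, with the builds GRCh38 and hg19 named without their roles; strand setting and annotation are not given in the sources used here. Because 100% of non-zero values were whole multiples of 1 read (within 0.0051 CPM), whole reads were recovered. Limma 3.58.1 (R 4.3.3, lmFit, eBayes with trend, two-sided) was run on log2(CPM + 1) for genes averaging 1 CPM or more, group only, then with the replicate number as a block. It was also tested on simulated data, in which libraries of the same number shared their baseline level. Pairing was thus built into the simulation, which cannot show whether the deposited libraries pair. Replicate numbers come from the sample titles, and no label says what a number shares. They were taken to pair the libraries. Deviations from group means correlated at 0.500, 0.104, 0.673 and 0.130 for numbers 1 to 4. A positive value alone does not mark a pair, since libraries of different numbers also reached one. For numbers 2 and 4 the largest correlation with another number, 0.144, was above that with their own. The correlations thus mark out numbers 1 and 3 as pairs, and for numbers 2 and 4 the pairing rests on the titles. Alternatives were pseudocounts, filters, scalings, edgeR 4.0.16 and DESeq2 1.42.0 on recovered reads, and leaving libraries or pairs out. Members, lists and tests were chosen with earlier results of these data known. All 10 members are named, and of the other lists, genes called in either limma fit. Genes of a member's cluster may stand beside it. For members at 10 CPM or more, the 2 genes of highest Pearson correlation are named. The regulators ZFP57, DNMT1, UHRF1, TRIM28, ZNF445, SETDB1 and TET3 were named outside these rules. Chromosomes and overlaps are from GENCODE release 29 (GRCh38), used for annotation only. Intervals and floors cover counting error only.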

Additional observations from a re-analysis of the deposited data

Results flagged for a closer look

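Dixon's ratio was examined in 36 groups of 4 libraries, for the tested members, the genes of the other lists called in the paired fit, COPG2 and UBE3A, and 2 groups had a library beyond its 95% critical value, where chance flags about 5% of groups. None of the 9 tested members was among them. COPG2, the neighbour of MEST on the opposite strand, was at 52.9 CPM in control replicate 3, where the other controls lay between 111 and 119 CPM. DNMT3A had 52.3 CPM in control replicate 3, and 158 to 179.7 CPM in the other controls.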

How the results depend on the processing

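The replicate block moved the results most. The limma fit without it called 0 of 15092 genes, 0 of the 9 members, 0 of the 35 other imprinted genes and 0 of the 21 regulators; the replicate block gave 1717, 4, 4 and 3, edgeR with the block 1711, 4, 4 and 3, and DESeq2 with the block 936, 3, 4 and 3. DESeq2 without the block called 292 genes, 0 members, 1 other imprinted gene and 2 regulators, no filter called 18 genes in all, and edgeR without the block 0 of each. Leaving out 1 library at a time gave 0 to 300 genes, 0 members, 0 to 1 other imprinted genes and 0 to 2 regulators, the highest counts being those without control replicate 3. Without replicate 3 of both groups 413 genes, 1 member, 2 other imprinted genes and 2 regulators were called, and the replicate block without pair 1, 2, 3 or 4 gave 951, 668, 1078 and 1393 genes, 3 to 4 members, 2 to 4 other imprinted genes and 3 to 4 regulators. Settings chosen after the data were seen, all with the block, gave 1694, 4, 4 and 3 with median-ratio scaling, 1688, 4, 4 and 3 with quantile normalization, 1653, 4, 4 and 4 with a mean of at least 5 CPM, 1363, 4, 4 and 3 with a pseudocount of 0.1 and 1710, 4, 4 and 3 with a pseudocount of 5. The causes were not tested. PEG3, PEG10 and PLAGL1 were called in 12 of 12 settings with the block and GRB10 in 8 of 12, and without the block 1 of 19 settings called PEG3 and 0 of 19 the other 3. MEG3, PEG3, PEG10, PLAGL1 and GRB10 kept the sign of their change in all settings. The sign turned for members that no fit called. The log2 change of CDKN1C was 0.038 without replicate 3 of both groups, with and without the replicate block. That of NDN was 0.0092 by edgeR, 0.042 without replicate 3 of both groups, with and without the block, 0.11 with the block and without pair 2, and −0.35 to 0.33 with 1 library left out. Leaving out 1 library gave −0.74 to 0.51 for MEST and −0.083 to 0.99 for SGCE, and without replicate 3 SGCE was at −0.000194. The replicate block also changed the calls of KCNQ1OT1, GNAS, SNHG14, PWAR6, EHMT2, DNMT3A and DNMT3B. In limma at the main settings it changed no other call among the members, the other imprinted genes and the regulators. The block without pair 4, and the block with a mean of at least 5 CPM, each called 3 regulators lower and 1 higher. CDKN1C, SGCE and DLK1 rest on at most 16 reads in any library, so that only large changes could be seen.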
